A study of Mus musculus with 6 samples.

Results

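The acute-phase proteins and apolipoproteins of inguinal white adipose tissue (iWAT) were followed through 10 genes chosen by symbol, namely *Hp*, *Saa1*, *Saa3*, *Lcn2*, *Orm1*, *Orm2*, *Cp*, *Apoe*, *Apoc1* and *Apod*. All 10 were present among the 19445 loci of the deposited table. A locus was tested if either genotype averaged over 1 FPKM, which held for 11692 loci and for 8 of the 10 genes, while *Saa1* and *Saa3* stayed under that level. *Orm2* is on 2 rows of the table with the same coordinates, and the row with the higher mean was used. RNA-Seq was performed on iWAT of 3 *Hlx* transgenic mice and 3 wild-type littermates aged 12 weeks, 1 library being made from each mouse. The transgene places the cDNA of *Hlx*, a homeobox transcription factor, under the *aP2* (*Fabp4*) promoter, which is active in adipocytes and also in macrophages, and controls carry no transgene. Founders came from C57BL/6 and SJL hybrid embryos and were crossed to C57BL/6. Levels are FPKM, reads scaled to transcript length and to the mapped reads of the library, so that levels of different genes can be set side by side. *Hlx* had between 79.6 and 109.7 FPKM in the transgenic mice and between 6.88 and 8.14 FPKM in the controls, in accord with the labels. The labels give male mice, whereas *Xist* was between 20.2 and 33.6 FPKM in the 6 libraries and 0 of 28 loci of the Y chromosome were above 0. Both readings point to female tissue in all 6 libraries, against the label.

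In the acute-phase response, interleukin-6, interleukin-1 and glucocorticoids act through STAT3, NF-κB and C/EBP factors to raise the synthesis of plasma proteins that bind hemoglobin, siderophores, lipids and proteases. The liver is the main source, but adipocytes also secrete haptoglobin, orosomucoids, lipocalin 2 and, in mice, serum amyloid A3. Apolipoproteins coat lipoprotein particles and direct their lipids to receptors and enzymes, and fat is among the richest sources of apolipoprotein E outside the liver.

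Among the 10 genes, *Hp*, *Orm1*, *Orm2* and *Apoc1* rose in transgenic iWAT and *Apod* fell, at an adjusted p under 0.05 (limma on log2(FPKM + 1), Benjamini-Hochberg adjustment over all tested loci, n = 3 mice per genotype). Log2 fold changes and log2 differences below are of FPKM + 1, transgenic minus wild type, from this fit. *Lcn2*, *Cp* and *Apoe* did not pass the test. Thus 4 of the 8 tested genes were called higher, where 11.6% of all tested loci were, and 1 of 8 was called lower, where 7.03% were. The 10 genes were chosen with earlier results of these data known, so these shares describe the set and test nothing. *Orm1* and *Orm2* are close copies of each other and are not independent. Of all called loci 62.2% were higher, or 47.9% with FPKM rescaled to 1 common sum per library. The median log2 fold change was 0.15 over the 8 genes and -0.01 over all tested loci. The summed FPKM of the 10 genes overlapped between the genotypes, with 3909 to 5399 in transgenic and 4185 to 4992 in wild-type mice. Its make-up differed, since *Apoe* gave between 68.5% and 72.6% of the sum in the controls and between 45.6% and 51.2% in the transgenic mice, while *Hp* gave between 7.84% and 12.3% in the controls and between 19.7% and 32.5% in the transgenic mice.

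**Figure D1:**
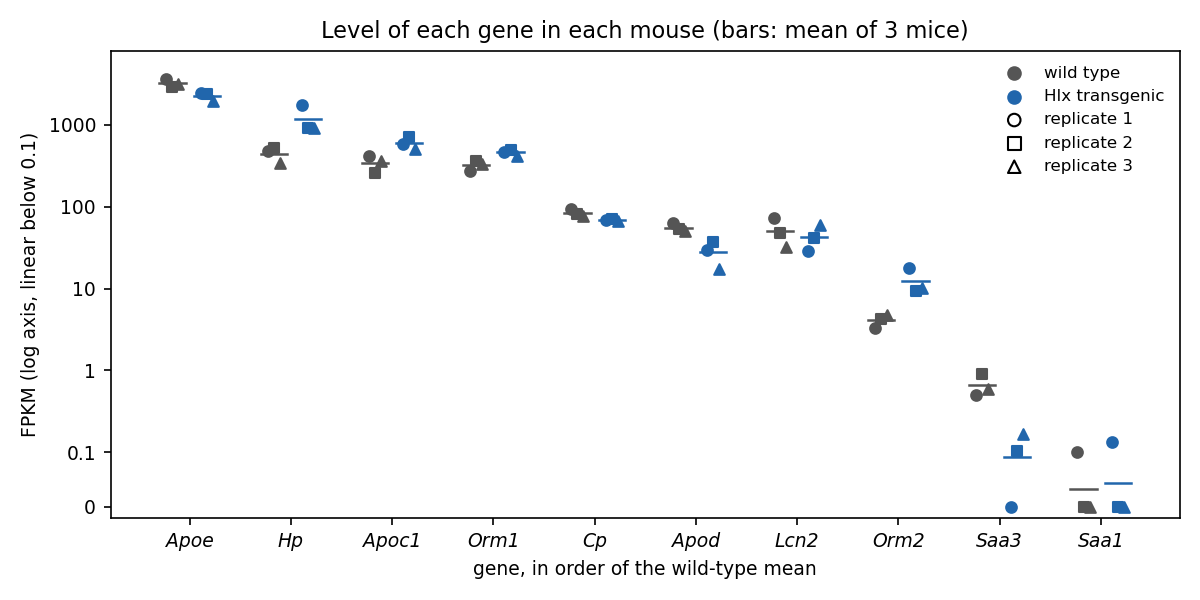
FPKM of the 10 genes in each mouse on a log axis that is linear below 0.1, with wild-type mice in grey, transgenic mice in blue, a marker shape per replicate number and a bar for the mean of 3 mice. *Apoe* leads in both genotypes, and the blue points lie above the grey ones for *Hp*, *Apoc1*, *Orm1* and *Orm2* and below them for *Apoe*, *Cp*, *Apod* and *Saa3*.

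In wild-type iWAT *Apoe* was highest, with a mean of 3216 FPKM that ranked 10 among the loci of the table. *Hp*, *Apoc1* and *Orm1* followed at means of 444, 344 and 322 FPKM, with ranges that overlapped each other. *Cp* had 84.2 FPKM, above the ranges of *Apod* and *Lcn2*, which overlapped at means of 55.4 and 50.5 FPKM. *Orm2* had 4.07 FPKM, *Saa3* 0.666 FPKM and *Saa1* 0.0335 FPKM. In transgenic iWAT the ranges of *Apoe*, *Hp*, *Apoc1*, *Orm1* and *Cp* stood apart in that order, those of *Lcn2* and *Apod* overlapped, and *Apod* in transgenic replicate 3, at 17.3 FPKM, lay just under *Orm2* in transgenic replicate 1, at 17.7 FPKM.

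**Figure D2:**
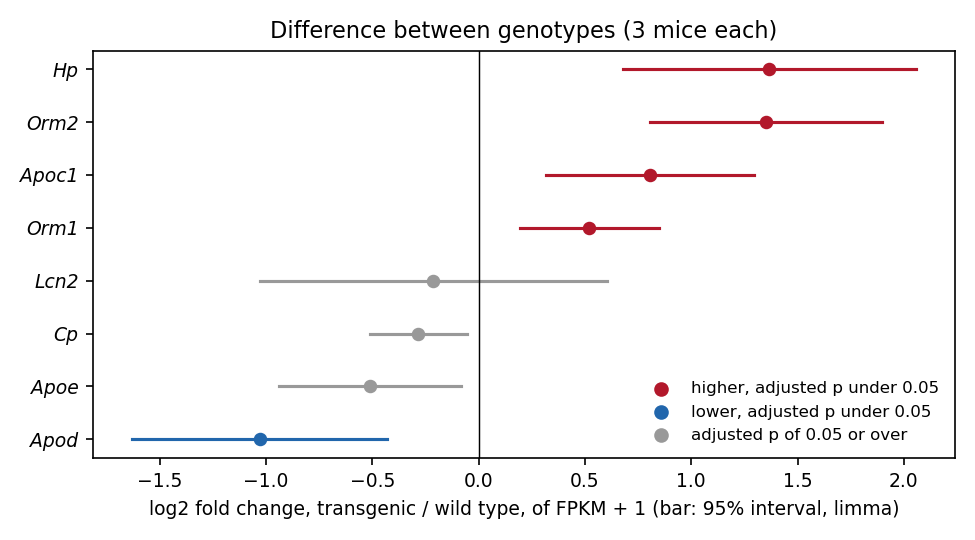
Log2 fold change of FPKM + 1 between transgenic and wild-type iWAT for the 8 tested genes, with the 95% interval of limma as a bar and 3 mice per genotype. *Hp* and *Orm2* have the highest points, at 1.37 and 1.35, *Apod* the lowest, at -1.03, and the interval of *Lcn2* spans 0.

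Haptoglobin, the product of *Hp*, binds free hemoglobin and hands it to macrophages for uptake. The gene lies on chromosome 8 of mm10 from 109575127 to 109579172. *Hp* had 1753, 918 and 899.5 FPKM in the transgenic mice and 475, 514 and 344 FPKM in the controls. Every transgenic mouse was above every control, which was so for 22.8% of the tested loci, and transgenic replicate 1 stood above the other transgenic mice. The mean rose from 444 ± 89.2 FPKM in control to 1189.9 ± 487 FPKM in transgenic iWAT (SD, n = 3 each), a ratio of 2.68 and a log2 difference of 1.37 ± 0.29 (SE) at an adjusted p = 0.0206 in limma. Its rank among the loci moved from 133 to 46. Without transgenic replicate 1 the log2 fold change was 1.05 and the gene was still called, whereas without wild-type replicate 3 the adjusted p was 0.0722 (limma, range 0.0155 to 0.0722 over 16 other settings). The genotypes did not overlap for 7 of the 8 tested genes, where 42.9% of all tested loci did not overlap, nor for *Saa3*. For each of them an exact permutation test gave a two-sided p of 0.1, the smallest that 3 mice against 3 allow. In bulk tissue, fewer cells of a type and less RNA per cell cannot be told apart.

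The orosomucoids, or alpha-1-acid glycoproteins, are plasma lipocalins that bind drugs and small lipids and dampen inflammation. Their genes stand in a row on chromosome 4, with *Orm1* from 63344565 to 63348162, *Orm3* from 63356132 to 63359511 and *Orm2* from 63361532 to 63366814. *Orm1* had 464, 497 and 419.6 FPKM in the transgenic mice and 272, 362 and 331 FPKM in the controls. The genotypes did not overlap, and the mean rose from 322 ± 45.7 FPKM in control to 460.2 ± 38.9 FPKM in transgenic iWAT (SD, n = 3 each), giving a log2 difference of 0.52 ± 0.14 (SE) at an adjusted p = 0.0419 in limma. *Orm2* had 17.7, 9.34 and 10.1 FPKM in the transgenic mice and 3.33, 4.19 and 4.69 FPKM in the controls. Again no values overlapped, and transgenic replicate 1 was the highest. The mean rose from 4.07 ± 0.689 FPKM in control to 12.4 ± 4.61 FPKM in transgenic iWAT (SD, n = 3 each), a ratio of 3.03 and a log2 difference of 1.35 ± 0.23 (SE) at an adjusted p = 0.00965 in limma. *Orm3*, the gene between them, had 86.2, 68.3 and 51.2 FPKM in the transgenic mice against 11.04, 13.5 and 11.1 FPKM in the controls, giving a log2 difference of 2.41 ± 0.19 (SE) at an adjusted p = 0.000669 in limma. The share of *Orm3* in the summed FPKM of the 3 genes was 12.6% ± 2.35 in transgenic and 3.53% ± 0.334 in wild-type iWAT (SD, n = 3 each), without overlap, and that of *Orm1* was 85.2% ± 3.01 and 95.3% ± 0.249.

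**Figure D3:**
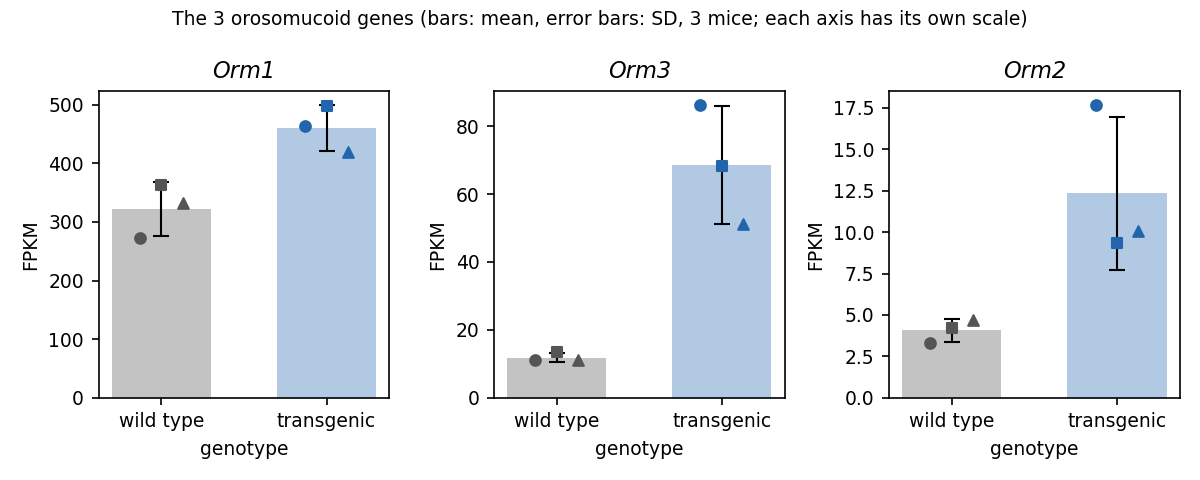
FPKM of *Orm1*, *Orm3* and *Orm2*, in the order of the genes on the chromosome, with the mean as a bar from 0, the SD over 3 mice as an error bar, a point per mouse and a separate scale per gene. No wild-type point reaches a transgenic point, with mean ratios of 1.43, 5.78 and 3.03.

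The calls of *Orm2* and *Orm3* were kept in all 16 other settings run at the same threshold. That of *Orm1* was lost in 10 of 16, which include each of the 6 settings without 1 mouse (limma adjusted p between 0.0546 and 0.0984) and quantile normalization, where it had a log2 difference of 0.14 (adjusted p = 0.526, range 0.0355 to 0.526 over the 16 settings). The 3 transcripts are close copies, with 91.0% of aligned bases identical between *Orm1* and *Orm2*, 88.5% between *Orm2* and *Orm3* and 86.5% between *Orm1* and *Orm3* (GENCODE M21). Of all 100-base windows, the length of the reads, 6.95% of the *Orm1* transcript also occur in *Orm2* without a mismatch, and 0 windows of *Orm3* do so in another gene. Part of the *Orm2* value could thus come from *Orm1* reads. Windows with mismatches were not counted, so whether reads of *Orm3* add to the *Orm2* value cannot be told from this count. How the authors' counting divided reads that match more than 1 gene is not given in the sources used here.

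The promoters of *Orm2* and *Orm3* are shown because these genes rose together, and that of *Saa3* because it is a textbook target of C/EBP factors that was lower in every transgenic mouse than in any control. They run from 250 bases before to 50 bases after the start of the gene (RefSeq, GRCm38.p6, which is mm10), on the plus strand for *Orm2* (chr4:63362199-63362498) and *Orm3* (chr4:63355908-63356207) and on the minus strand for *Saa3* (chr7:46715627-46715926). The listed locus of *Orm2* begins earlier, at 63361532, so that its printed window, set by the RefSeq start, lies inside that locus. Capitals mark each match to the C/EBP motif TTGCNNAA on either strand.
Orm2: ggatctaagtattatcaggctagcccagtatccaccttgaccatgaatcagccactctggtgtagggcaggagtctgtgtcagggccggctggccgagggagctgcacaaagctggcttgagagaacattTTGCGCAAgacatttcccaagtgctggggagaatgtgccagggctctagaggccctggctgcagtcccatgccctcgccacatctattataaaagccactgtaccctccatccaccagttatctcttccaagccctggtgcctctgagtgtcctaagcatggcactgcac
Orm3: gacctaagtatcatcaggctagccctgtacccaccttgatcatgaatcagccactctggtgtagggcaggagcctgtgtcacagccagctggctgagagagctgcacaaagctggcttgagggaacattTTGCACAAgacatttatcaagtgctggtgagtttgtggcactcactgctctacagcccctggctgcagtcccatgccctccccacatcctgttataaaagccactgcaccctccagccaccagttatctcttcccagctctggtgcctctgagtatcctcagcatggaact
Saa3: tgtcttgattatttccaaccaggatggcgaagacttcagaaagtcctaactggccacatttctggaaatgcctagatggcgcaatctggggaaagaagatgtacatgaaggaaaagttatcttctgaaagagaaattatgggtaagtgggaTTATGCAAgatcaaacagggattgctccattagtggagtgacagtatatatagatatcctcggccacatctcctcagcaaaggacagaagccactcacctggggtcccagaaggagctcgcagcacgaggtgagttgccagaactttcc
In *Orm2* and *Orm3* the match lies 120 and 121 bases before the start, in windows that share 89.2% of aligned bases, and in *Saa3* it lies 99 bases before the start. RefSeq windows were found for 7 of the 10 genes, but not for *Hp*, *Orm1* and *Apoc1*, which were called higher. Of the 10 genes called higher, only *Orm2* could thus be looked at. With *Orm3* and *Saa2* the windows numbered 12. This motif was in 7 of them (*Cp*, *Lcn2*, *Saa1*, *Saa2* and the 3 printed), against 10.8% of all 32851 promoter windows. The STAT motif TTCNNNGAA, in 8.3% of all windows, and the NF-κB consensus motif, in 5.8%, were in 0 of the 12. The glucocorticoid receptor motif AGAACA, in 19.0% of all windows, was in 3 (*Apoe*, *Cp* and *Orm2*), in *Orm2* 128 bases before the start and clear of the C/EBP match. Windows of paralogs share sequence and are not independent, and these matches are letters in a window, not measured binding.

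Serum amyloid A proteins ride on high-density lipoprotein, and *Saa3* is the member made by fat and macrophages in mice. *Saa3*, on chromosome 7 from 46711997 to 46715676, had 0, 0.103 and 0.170 FPKM in the transgenic mice and 0.498, 0.913 and 0.587 FPKM in the controls. No value overlapped, and every value lay under 1 FPKM. With the relative depth of each library (0.692 to 1.41, read from the steps between its lowest values, with wild-type replicate 3 as 1), the values above 0 fell within 0.05 of whole multiples of 1 step, at 0, 1 and 1 steps in the transgenic mice against 4, 11 and 5 in the controls. If 1 step is 1 read, 2 reads stand against 20, a ratio per depth of 0.132 with an exact 95% interval from 0.0149 to 0.542 that covers counting error only. With no filter on low values, *Saa3* had a log2 difference of -0.61 ± 0.105 (SE) at an adjusted p = 0.0208 in limma. *Saa1*, on chromosome 7 from 46740498 to 46742980 and a product of liver, was at 0.133 FPKM in transgenic replicate 1, at 0.1004 FPKM in wild-type replicate 1 and listed at 0 in the other 4 libraries, so that a difference was not detectable at this depth. Its close copy *Saa2*, with 94.4% of aligned bases identical, was listed at 0 in all 6.

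Lipocalin 2 withholds iron from bacteria by binding their siderophores and is made by neutrophils, epithelia and fat. *Lcn2*, on chromosome 2 from 32384558 to 32391286, had 28.3, 41.0 and 59.7 FPKM in the transgenic mice and 72.5, 47.0 and 31.9 FPKM in the controls. The genotypes overlapped, with means of 43.0 ± 15.8 and 50.5 ± 20.5 FPKM (SD, n = 3 each). Its log2 fold change of -0.21 had a 95% interval from -1.03 to 0.61 (limma adjusted p = 0.689), which includes a 2-fold fall but not a 2-fold rise. The sign turned without transgenic replicate 1 (0.049) and without wild-type replicate 1 (0.083). The coefficient of variation between mice was 36.7% in transgenic and 40.6% in wild-type iWAT, against 3.49% and 10.6% for *Cp*. In transgenic iWAT *Hp*, *Orm2* and *Apod* varied about as much as *Lcn2*, at 41.0%, 37.3% and 35.1%. In wild-type iWAT they varied less, at 20.1%, 16.9% and 13.1%.

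Within each genotype the order of *Lcn2* among the mice was that of the summed epithelial markers, a pattern noticed after its values were seen and not followed by every marker. The 11 epithelial markers of the table summed to 162, 224 and 326 FPKM in transgenic replicates 1 to 3 and to 380, 339 and 269 FPKM in wild-type replicates 1 to 3. *Epcam*, a surface protein of epithelial cells, had 10.1, 16.7 and 34.9 FPKM in the transgenic mice and 34.3, 25.3 and 20.4 FPKM in the controls, in the same order as *Lcn2*. *Elf5*, a factor of mammary secretory cells, had 2.39, 5.11 and 9.94 FPKM and 11.5, 6.81 and 3.68 FPKM, again in that order. Of the 10 markers above 0, 5 had the order of *Lcn2* in both genotypes, namely *Epcam*, *Elf5*, *Krt5*, *Krt18* and *Cdh1*. The other 5 did not, since *Krt8* and *Lalba* differed from it in transgenic mice, *Krt19* and *Csn3* in controls, and *Ltf*, lactoferrin, in both, with 10.1, 4.45 and 4.36 FPKM in the transgenic mice and 10.001, 9.43 and 13.8 FPKM in the controls. Of the 10 epithelial markers tested 0 were called higher and 1 was called lower, and *Wap*, a milk protein, was listed at 0 in all 6 libraries. The 9 neutrophil markers of the table summed to between 26.2 and 63.9 FPKM in transgenic and between 12.5 and 25.3 FPKM in wild-type mice, without the order of *Lcn2*. Of 8 neutrophil markers tested *Camp* was called higher, a call lost in 8 of 16 other settings, and 0 were called lower. *S100a9* and *Camp* were higher in every transgenic mouse than in any control, as were 22.8% of all tested loci. *Csf3r* and *Cxcr2* were lower in every transgenic mouse than in any control, as were 20.1%. *Camp* was low, at 0.103 to 1.35 FPKM in the controls. The part of epithelial RNA in the values of *Lcn2* was not tested.

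**Figure D4:**
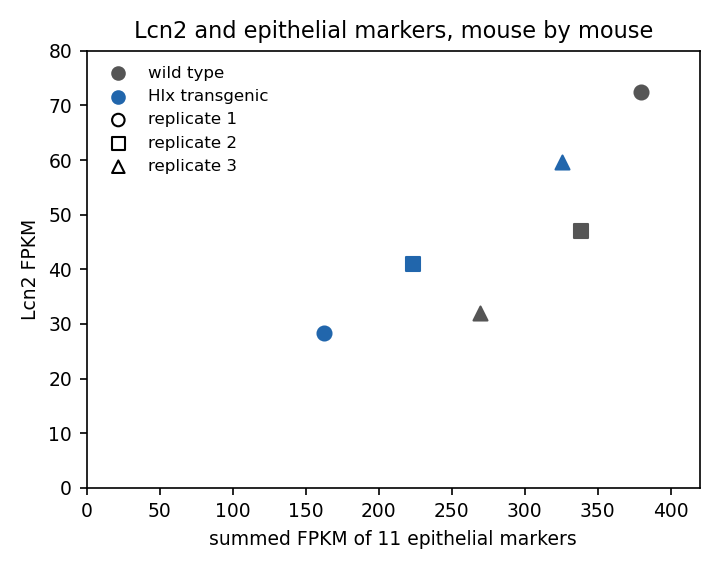
*Lcn2* FPKM of each mouse against the summed FPKM of 11 epithelial markers, with wild-type mice in grey, transgenic mice in blue and a marker shape per replicate number. Within each genotype, mice with a higher marker sum have more *Lcn2*. Transgenic mice run from 162 and 28.3 FPKM to 326 and 59.7 FPKM, and wild-type mice from 269 and 31.9 FPKM to 380 and 72.5 FPKM. Across genotypes the order is not kept, since transgenic replicate 2, at 224 and 41.0 FPKM, has more *Lcn2* than wild-type replicate 3.

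Ceruloplasmin, the product of *Cp*, is a copper enzyme that oxidizes iron as it leaves cells. *Cp*, listed on chromosome 3 on a locus from 19956941 to 20035311 that *Hps3* shares, had 68.3, 71.4 and 66.7 FPKM in the transgenic mice and 94.1, 81.8 and 76.7 FPKM in the controls. No value overlapped, which with transgenic below wild type was so for 20.1% of the tested loci. Its log2 fold change of -0.28 (standard error 0.10, 95% interval -0.51 to -0.05) had an adjusted p of 0.0834 (limma). It was called lower in 2 of 16 other settings, quantile normalization and FPKM rescaled to 1 common sum (adjusted p = 0.0167 and 0.0166, range 0.0166 to 0.201). Hephaestin, the membrane-bound relative of ceruloplasmin, fell. *Heph* had 6.96, 4.63 and 5.73 FPKM in the transgenic mice and 20.1, 21.2 and 20.2 FPKM in the controls, giving a log2 difference of -1.68 ± 0.13 (SE) at an adjusted p = 0.000665 in limma. Ferroportin, the iron exporter that both enzymes serve, rose, its gene *Slc40a1* having 7.30, 4.15 and 7.74 FPKM in the transgenic mice against 3.36, 2.71 and 2.72 FPKM in the controls, giving a log2 difference of 0.88 ± 0.21 (SE) at an adjusted p = 0.0288 in limma. *Slc40a1* was not called with no filter on low values and without each mouse but transgenic replicate 2 (limma adjusted p between 0.0529 and 0.0917).

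Apolipoprotein E is the ligand by which remnant particles are taken up by cells. *Apoe*, on chromosome 7 from 19696243 to 19699166, had 2464, 2389 and 1925 FPKM in the transgenic mice and 3597, 2867 and 3184 FPKM in the controls. The genotypes did not overlap, with means of 2259 ± 292 and 3216 ± 366 FPKM (SD, n = 3 each). Its log2 fold change of -0.51 (standard error 0.18, 95% interval -0.94 to -0.08) had an adjusted p of 0.0922 (limma). It was called lower in 3 of 16 other settings, namely quantile normalization (adjusted p = 0.0278), FPKM rescaled to 1 common sum (0.0273) and limma without a variance trend (0.0412), with a range from 0.0273 to 0.334 over the 16.

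*Apoc1*, whose locus on chromosome 7 from 19689480 to 19692658 is 3584 bases from that of *Apoe*, codes for a small apolipoprotein that slows lipoprotein lipase and remnant uptake. It had 575, 703 and 511 FPKM in the transgenic mice and 414, 256 and 362 FPKM in the controls. All transgenic mice were above all controls, with means of 596 ± 97.9 and 344 ± 80.8 FPKM (SD, n = 3 each), a ratio of 1.73 and a log2 difference of 0.81 ± 0.21 (SE) at an adjusted p = 0.0376 in limma. The ratio of *Apoe* to *Apoc1* FPKM within a mouse was 4.29, 3.40 and 3.77 in transgenic against 8.68, 11.2 and 8.79 in wild-type iWAT, with no overlap (exact permutation test, two-sided p = 0.1, n = 3 per genotype). A ratio within a library is not changed by multiplying the whole library by 1 factor, but quantile normalization can change it. *Apoc1* was not called in 8 of the 16 settings, which include quantile normalization (adjusted p = 0.18) and each left-out mouse but wild-type replicate 1 (limma adjusted p between 0.0642 and 0.0869).

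Apolipoprotein D is a lipocalin, unlike the other apolipoproteins in structure, that binds arachidonic acid and progesterone and is made by fibroblasts, Schwann cells and mammary tissue. *Apod*, on chromosome 16 from 31296191 to 31314860, had 29.4, 36.5 and 17.3 FPKM in the transgenic mice and 63.7, 52.7 and 49.9 FPKM in the controls. No value overlapped, and transgenic replicate 3 was the lowest. The mean fell from 55.4 ± 7.29 FPKM in control to 27.7 ± 9.73 FPKM in transgenic iWAT (SD, n = 3 each), giving a log2 difference of -1.03 ± 0.25 (SE) at an adjusted p = 0.0334 in limma. Without transgenic replicate 1 and without each of the 3 wild-type mice in turn, the adjusted p was between 0.0667 and 0.0896 (limma), and with no filter on low values it was 0.0616, and these were the 5 settings of 16 in which *Apod* was not called. Of 10 fibroblast markers 0 were called higher and 1, *Dpt*, was called lower, and their summed FPKM was between 1551 and 2135 in transgenic and between 2220 and 2727 in wild-type mice. Of 6 Schwann cell markers tested 2, *Mbp* and *Ngfr*, were called higher and 0 lower. Each of these calls was lost in 6 of 16 other settings, for *Mbp* without each mouse but wild-type replicate 2 (limma adjusted p up to 0.0871) and for *Ngfr* without each mouse but transgenic replicate 1 and wild-type replicate 3 (up to 0.0925). The part of these cells in the fall of *Apod* was not tested.

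Other acute-phase genes were called in both directions. Of 33 listed genes 28 were in the table and 15 were tested, of which 2 rose, 2 fell and 11 did not pass the test, with a median log2 fold change of -0.37. That is 2 of 15 in each direction, where 11.6% of all tested loci were called higher and 7.03% lower. *Itih4*, a chain of the inter-alpha-trypsin inhibitors, had 16.2, 19.4 and 16.6 FPKM in the transgenic mice and 2.34, 1.30 and 2.56 FPKM in the controls, giving a log2 difference of 2.60 ± 0.17 (SE) at an adjusted p = 0.000418 in limma. *Orm3*, described above, was the other gene that rose. *Serpina3n*, a protease inhibitor among the strongest acute-phase genes of mouse liver, had 6.52, 14.8 and 8.80 FPKM in the transgenic mice and 80.7, 122 and 87.3 FPKM in the controls, giving a log2 difference of -3.19 ± 0.28 (SE) at an adjusted p = 0.000914 in limma. *Serpina3c*, of the same gene family, fell by 0.96 on the log2 scale (adjusted p = 0.0113). *C3*, the complement component, had between 548 and 876 FPKM in transgenic and between 482 and 729 FPKM in wild-type mice (adjusted p = 0.799), and the metallothionein *Mt1* had an adjusted p of 0.131. In transgenic iWAT, then, haptoglobin and orosomucoids were higher in the same mice in which *Serpina3n* was lower.

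Few genes of plasma proteins whose synthesis in liver falls during an acute-phase response passed the level for testing in iWAT. Of 7 listed genes 3 were tested and all 3 fell, where 7.03% of all tested loci were called lower. *Alb*, serum albumin, had 9.14, 5.82 and 9.52 FPKM in the transgenic mice and 25.5, 40.5 and 34.0 FPKM in the controls, giving a log2 difference of -1.91 ± 0.22 (SE) at an adjusted p = 0.00225 in limma. *Rbp4*, the retinol carrier of plasma, and *Trf*, transferrin, which carries iron, fell by 1.79 and 1.27 on the log2 scale (adjusted p = 0.0051 and 0.00843, limma). Both were abundant in wild-type iWAT, with means of 519 and 968 FPKM that ranked 112 and 52 among the loci. Among 9 hepatocyte markers present 3 were tested, of which *Alb* was lower, *Apoa2* was higher and *Fgb*, a fibrinogen chain, did not pass the test. *Cps1* and *Fga* were listed at 0 in all 6 libraries, and *Ttr* was at most 0.0369 FPKM. The part of hepatocyte RNA in the fall of *Alb* was not tested.

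Of 19 other apolipoprotein genes 18 were in the table and 8 were tested. *Apoa2* and *Apool* rose, 0 fell and 6 did not pass the test, with a median log2 fold change of 0.01. *Apoa2*, a protein of high-density lipoprotein, was near the lower limit of testing, at a mean of 2.91 ± 0.871 FPKM in transgenic against 1.09 ± 0.106 FPKM in control iWAT (SD, n = 3 each, log2 fold change 0.88, limma adjusted p = 0.0134). *Apool*, despite its name, is a protein of mitochondrial cristae, and it rose from 21.1 ± 3.29 FPKM in control to 38.7 ± 1.75 FPKM in transgenic iWAT (SD, n = 3 each, log2 fold change 0.86, limma adjusted p = 0.00395). *Clu*, or apolipoprotein J, had between 161 and 228 FPKM in transgenic and between 256 and 355 FPKM in wild-type mice without overlap, at an adjusted p of 0.0632 (limma). Without transgenic replicate 1, with quantile normalization and with sample weights 1 gene of this list was called lower.

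**Figure D5:**
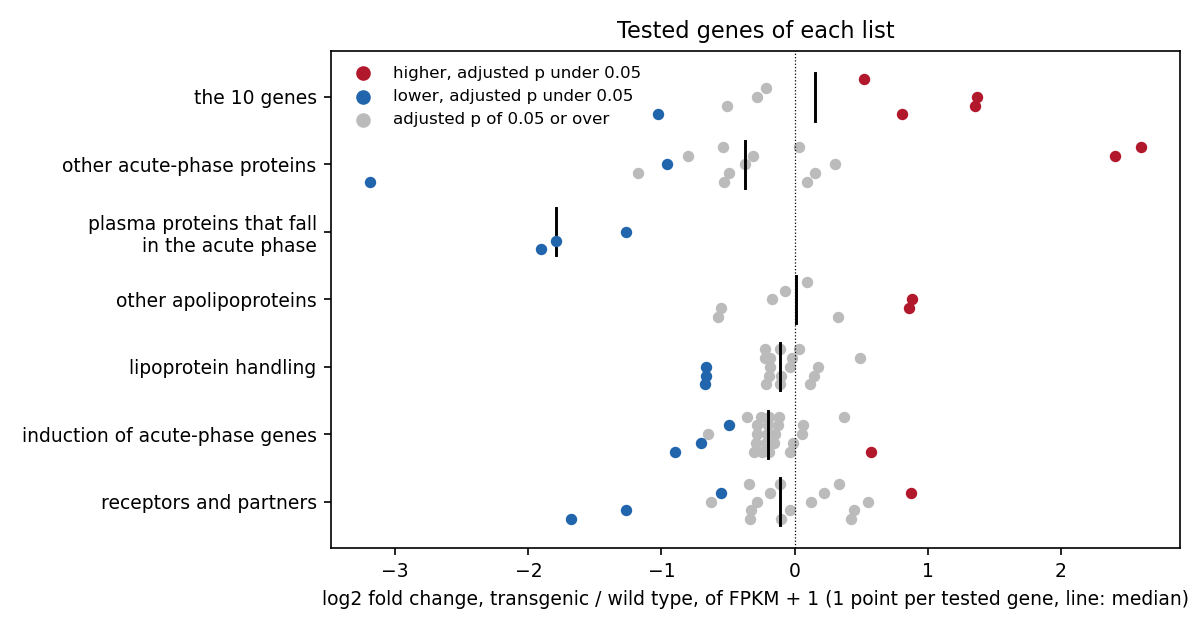
Log2 fold change of FPKM + 1 for each tested gene of the 10 genes and of 6 related lists, 1 point per gene, with the median of each list as a line. Red points rose and blue points fell at an adjusted p under 0.05, and the 3 tested plasma proteins that fall in the acute phase are all blue, with a median of -1.79.

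Among 19 tested genes that act on lipoproteins, 0 rose, 3 fell and 16 did not pass the test (median log2 fold change -0.11). The shares over all tested loci were 11.6% higher and 7.03% lower. The 3 that fell were *Lpl*, which frees fatty acids from triglyceride-rich particles, *Mylip*, a ubiquitin ligase that limits lipoprotein uptake, and *Pltp*, which moves phospholipid between particles, with log2 fold changes of -0.67, -0.67 and -0.66 (adjusted p = 0.0209, 0.00869 and 0.0313, limma). Neither *Lpl* nor *Pltp* was called with no filter on low values or without transgenic replicate 1 or 3 or wild-type replicate 1 or 2 (limma adjusted p up to 0.0844), so that 1 gene of the list was left, and *Pltp* was also not called without wild-type replicate 3. With quantile normalization and with FPKM rescaled to 1 common sum 5 genes were lower, and without transgenic replicate 1 and with sample weights 1 was higher. The receptors *Lrp1* and *Scarb1* had adjusted p of 0.533 and 0.684 (limma).

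The pathway that switches on acute-phase genes held 26 tested genes, of which 1 rose, 3 fell and 22 did not pass the test (median log2 fold change -0.20). Over all tested loci 11.6% were called higher and 7.03% lower. The number of pathway genes lower was 6 with quantile normalization and 5 with FPKM rescaled to 1 common sum or with sample weights. *Cebpb*, a C/EBP factor that binds acute-phase promoters, had 47.8, 51.7 and 51.1 FPKM in the transgenic mice and 35.8, 31.6 and 33.0 FPKM in the controls, giving a log2 difference of 0.57 ± 0.08 (SE) at an adjusted p = 0.00451 in limma. Its relative *Cebpd* had 7.24, 8.60 and 6.56 FPKM in the transgenic mice and 13.1, 13.6 and 11.6 FPKM in the controls, giving a log2 difference of -0.70 ± 0.11 (SE) at an adjusted p = 0.00756 in limma. *Nr3c1*, the glucocorticoid receptor, and its target *Tsc22d3* fell by 0.50 and 0.90 on the log2 scale (adjusted p = 0.0112 and 0.00696, limma), whereas another target of the receptor, *Fkbp5*, overlapped between the genotypes (adjusted p = 0.235). *Il6* and *Il1b* stayed under 1 FPKM in every mouse, at most at 0.119 and 0.685 FPKM. *Stat3* and its target *Socs3*, which reports interleukin-6 signalling, had log2 fold changes of -0.15 and -0.20 (adjusted p = 0.328 and 0.492, limma).

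Of 19 tested receptors and partners of these proteins 1 rose and 3 fell (median log2 fold change -0.11). Among all tested loci 11.6% were called higher and 7.03% lower. *Slc40a1*, *Heph* and *Trf* are described above, and the remaining gene was *Cd163*, the macrophage receptor for haptoglobin bound to hemoglobin. *Cd163* had 8.85, 10.3 and 10.4 FPKM in the transgenic mice and 14.2, 12.8 and 18.1 FPKM in the controls, giving a log2 difference of -0.55 ± 0.13 (SE) at an adjusted p = 0.0303 in limma, while its ligand *Hp* rose in the same tissue. Its call was lost without each mouse but wild-type replicate 2 and with no filter on low values, up to an adjusted p of 0.084. Of 10 macrophage markers 3 were called lower, *Cd163*, *Cd68* and *Csf1r*, and 0 higher. The call of *Cd68* was kept in all 16 other settings, whereas that of *Csf1r* was lost in 4 of 16 (limma adjusted p up to 0.0678). The 10 markers summed to between 424 and 631 FPKM in transgenic and between 627 and 910 FPKM in wild-type mice. These sums overlapped only in transgenic replicate 2 and wild-type replicate 2. *Hmox1*, which breaks down the heme taken up with haptoglobin, had an adjusted p of 0.139 (limma). The part of macrophage RNA in the values of *Cd163*, *Apoe* and *Saa3* was not tested.

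Defining genes of adipocytes were abundant, with *Plin1* between 680 and 842 FPKM and *Fabp4* between 19297 and 29363 FPKM across the 6 libraries. Of 7 adipocyte markers tested *Adipoq* was called lower and 0 were called higher. Of 8 brown adipocyte markers 7 were higher. Skeletal muscle markers summed to between 81.5 and 618 FPKM in transgenic and between 5.22 and 121 FPKM in wild-type mice, highest in transgenic replicate 2. Without that mouse the log2 fold changes of *Hp*, *Orm1*, *Orm2*, *Apoc1* and *Apod* were 1.52, 0.46, 1.51, 0.68 and -1.25.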

How the data were processed

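RNA from iWAT was measured in 3 *Hlx* transgenic and 3 wild-type mice, grouped by sample title. TruSeq libraries were read from 1 end for 100 bases. The authors mapped the reads to mm10 and deposited FPKM per gene and mouse. The submitters' processing notes name CASAVA 1.8.2, TopHat2 2.0.9, Bowtie2 2.1.0 and Cufflinks 2.2.1. The annotation and options are not given in the sources used here. All 6 columns of values were used.

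From these values log2(FPKM + 1) was tested with limma 3.58.1 in R 4.3.3 (two-sided, variance trend, no covariates, Benjamini-Hochberg adjustment, threshold 0.05) at the 11692 loci where the mean of either genotype was over 1 FPKM. FPKM are not counts, so no count test was run. Fold changes on this scale understate those of low genes. A symbol on several loci was taken from the one with the highest mean. Absolute depth is unknown, and the summed FPKM of a library was between 466059 and 542096. Relative depth is the commonest ratio between low values (under 0.3 FPKM) of 2 libraries, on which between 12.4% and 15.2% of them lay. Exact permutation tests used 20 arrangements. Lists are described by counts and medians, with no set test, and *Trf*, *Lrp1*, *Scarb1*, *Cd36* and *Apoa1* are each on more than 1 list. Counts of called genes in lists and of called cell type markers stand beside 11.6% of all tested loci called higher and 7.03% called lower. All 10 genes are named, and from each related list the 3 largest changes per direction among called genes, other named genes being markers or listed genes chosen after their values were seen. The genes and lists were chosen with earlier results of these data known. The fit was tested on simulated data. Alternatives were another pseudocount, other filters and scalings, limma without trend, sample weights, a replicate block, a stricter threshold, summed loci and each mouse left out. Figures were drawn with matplotlib 3.10.9.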

Additional observations from a re-analysis of the deposited data

How the results depend on the processing

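The direction of *Hp*, *Orm1*, *Orm2*, *Apoc1*, *Apod*, *Cp* and *Apoe* was kept in all 16 other settings, and it turned for *Lcn2* with sample weights (log2 fold change of 0.021), without transgenic replicate 1 (0.049) and without wild-type replicate 1 (0.083), the settings without 1 mouse running from -0.50 to 0.083. The count of the 10 genes called higher, 4, was 2 with no filter on low values, 2 with quantile normalization, 1 at an adjusted p under 0.01 and between 1 and 3 without 1 mouse. The count called lower, 1, was 3 with quantile normalization, 3 with FPKM rescaled to 1 common sum, 2 without a variance trend, 0 at an adjusted p under 0.01 and between 0 and 1 without 1 mouse. Over all loci, 1352 were higher and 822 lower. At an adjusted p under 0.01 these were 569 and 199, and without 1 mouse between 780 and 1295 and between 329 and 906. The cause of these moves was not tested.

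Same-numbered mice did not deviate together (r = 0.01, 0.03 and 0.07 for replicates 1, 2 and 3 across 11692 loci, which are not independent), and the labels tie the numbers to nothing shared. With the replicate number as a block, 1230 loci were higher and 656 lower, and 3 of the 10 genes were higher and 1 lower. *Saa1* and *Saa3*, whose values were all under 1 FPKM, could be tested only with no filter. With 3 mice per genotype the interval of a gene as variable as *Lcn2* spans more than a 2-fold range.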
